A study of Mus musculus with 24 samples.

Results

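The 10 core circadian clock genes Arntl, Clock, Npas2, Per1, Per2, Per3, Cry1, Cry2, Nr1d1 and Nr1d2 were followed in the retina. They were found by gene symbol in a table of 28802 genes, and all 10 were among the 16400 genes whose mean was at least 0.5 cpm and which were therefore tested. The unit cpm is a gene's reads scaled by the total reads of its library. RNA sequencing of total RNA freed of ribosomal RNA had been carried out on retinas of 24 wild-type mice at postnatal day 28. The mice belonged to 8 inbred strains, 129S1/Svlmj, C57BL/6J, NOD/ShiLtJ, A/J, PWK/PhJ, WSB/EiJ, NZO/HlLtJ and CAST/EiJ, with 3 libraries for each. No allele, drug or visual treatment set the groups apart, so each strain stands for 1 genetic background. The sex of the mice and the hour at which the retinas were collected are not given in the sources used here.

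The circadian clock is a feedback loop of transcription and translation. Arntl (BMAL1) pairs with Clock or its paralog Npas2, and the pair binds E-box elements to activate Per and Cry genes as well as Nr1d1 and Nr1d2. PER and CRY proteins return to the nucleus and repress the pair, while the nuclear receptors encoded by Nr1d1 and Nr1d2 (REV-ERB alpha and beta) repress Arntl through ROR elements. Transcripts of Arntl and of the Per, Cry and Nr1d genes therefore peak at different times of day in cycling tissue. The retina holds its own clock, which is known to time dopamine and melatonin release and the shedding of photoreceptor discs. A sample taken earlier or later in the cycle could move some activators and repressors in opposite directions, and this relation was measured here between libraries. Repressors that peak at different times need not all move alike.

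Between strains, Npas2 had the largest ratio of strain means, 2.497 (highest in A/J), but rested on only 25 to 96 reads per library. The next largest ratio was 1.641 (Per3) and the smallest 1.146 (Nr1d2). Of the 10 members, 8 were called in at least 1 strain against the others, near the 83.04% of all genes for which this held. Within strains, no member was called in the fits on Arntl and on Nr1d1, against 0% of all genes. As a description, Per1, Per2, Cry1 and Cry2 had positive correlations with each other and with amacrine cell markers within strains, and Clock had negative ones with Per2 and Cry2. Of these relations, those of Per1 and Cry1 with Cry2 were called in a fit, and not under each setting. That fit, on Cry2, called 7.98% of all genes. How many cells of a type a retina held and how much RNA each cell held cannot be told apart in these bulk libraries.

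Depth, judged from the size of 1 read in the low values, was 57607000 to 78150000 reads per library. Markers of neurons of the retina were present, with sums of 411 to 613 cpm for 6 bipolar cell genes and 217 to 269 cpm for 5 amacrine cell genes. Lens markers stood apart in 2 libraries. The 5 genes Cryaa, Crygs, Crybb2, Bfsp1 and Mip, led by Cryaa, summed to 1165 cpm in replicate 2 of 129S1/Svlmj and to 1296 cpm in replicate 2 of NOD/ShiLtJ. Replicate 2 of C57BL/6J had 154 cpm, and the other 21 libraries had 3.45 to 59.1 cpm. Strain calls that changed without the 2 libraries above 1000 cpm are given both ways.

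Levels of different genes were compared per kilobase of exon. Nr1d2 had the highest mean level of the 10, with 16.8 cpm per kb, followed by Clock with 7.01, Nr1d1 with 5.86, Per3 with 5.78, Arntl with 4.74 and Cry2 with 4.53 cpm per kb. Cry1 reached 3.16, Per1 1.54 and Per2 1.005 cpm per kb. Npas2 was by far the lowest at 0.125 cpm per kb, so that Clock had the more abundant transcript of these paralogs. Protein was not measured. Npas2 rested on 25 to 96 reads per library, and counting error alone made up 92.2% of its variance within strains. For the other 9 members that share was 7.48% to 26.5%.

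Differences between strains were tested with limma on log2(cpm + 1), each strain against the mean of the other 7, and called at a Storey q-value below 0.01 over all genes tested. A difference on this scale understates the change of low genes. Among the activators, Arntl (GRCm38 chr7:113207465-113314126, plus strand) encodes the partner that both activator pairs share. Its values were 40.9, 36.96 and 40.3 cpm in NOD/ShiLtJ, 38.9, 40.2 and 37.5 cpm in PWK/PhJ, 39.4, 37.5 and 38.97 cpm in A/J and 37.1, 35.4 and 34.96 cpm in CAST/EiJ. They were 34.6, 37.8 and 34.7 cpm in C57BL/6J, 35.4, 35.4 and 33.5 cpm in WSB/EiJ, 34.7, 33.2 and 32.2 cpm in NZO/HlLtJ and 30.4, 28.3 and 28.4 cpm in 129S1/Svlmj. All 3 libraries of 129S1/Svlmj lay below every other library, and NOD/ShiLtJ, PWK/PhJ and A/J overlapped each other above the remaining libraries, apart from replicate 2 of C57BL/6J and replicate 1 of CAST/EiJ. In 129S1/Svlmj Arntl was lower by -0.32 ± 0.04 (SE, log2; Storey q = 1.57e-07), with 3 of 3 libraries below the other strains. It was higher in NOD/ShiLtJ by 0.16 ± 0.04 (SE, log2; Storey q = 0.000742), in PWK/PhJ by 0.14 ± 0.04 (SE, log2; Storey q = 0.000742) and in A/J by 0.13 ± 0.04 (SE, log2; Storey q = 0.00324). The call in NOD/ShiLtJ was lost without its replicate 1 or 3 (limma, Storey q = 0.0120 to 0.0175), that in A/J without its replicate 1 or 3 (q = 0.0221 to 0.0274) and that in PWK/PhJ without its replicate 2 (q = 0.0125).

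Clock (chr5:76209868-76304792, minus strand) encodes the histone acetyltransferase that partners BMAL1. Its levels were 97.9, 102 and 107 cpm in A/J, 103, 101 and 99.9 cpm in NOD/ShiLtJ, 101, 97.3 and 104 cpm in C57BL/6J and 99.6, 95.7 and 92.2 cpm in NZO/HlLtJ. Lower means came from 96.6, 90.5 and 98.6 cpm in 129S1/Svlmj, 90.9, 98.7 and 95.2 cpm in PWK/PhJ, 91.6, 92.6 and 89.6 cpm in WSB/EiJ and 86.3, 86.6 and 91.1 cpm in CAST/EiJ. Every neighbour in the order of means overlapped the next, and the whole range of libraries spanned 1.24 times. CAST/EiJ, at 88.02 ± 2.71 cpm (SD, n = 3), was lower than the other strains by -0.14 ± 0.03 (SE, log2; Storey q = 0.000314). No other strain was called for Clock. A/J, with a difference of 0.10, was called in 7 of the 24 fits that each left out 1 library (limma, Storey q = 0.00818 to 0.00954), those without replicate 3 of 129S1/Svlmj, C57BL/6J or CAST/EiJ, replicate 1 of A/J or NZO/HlLtJ, or replicate 2 of PWK/PhJ or WSB/EiJ.

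Npas2 (chr1:39193731-39363236, plus strand) encodes a paralog of CLOCK that can take its place beside BMAL1. Readings were 1.26, 0.874 and 0.965 cpm in A/J, 0.634, 0.682 and 0.702 cpm in 129S1/Svlmj, 0.463, 0.768 and 0.673 cpm in C57BL/6J and 0.515, 0.585 and 0.538 cpm in WSB/EiJ. The rest were 0.512, 0.474 and 0.580 cpm in NZO/HlLtJ, 0.368, 0.510 and 0.600 cpm in NOD/ShiLtJ, 0.439, 0.514 and 0.522 cpm in CAST/EiJ and 0.382, 0.461 and 0.398 cpm in PWK/PhJ. All 3 A/J libraries were above the 21 others, while PWK/PhJ, the lowest strain, overlapped CAST/EiJ and NOD/ShiLtJ. Npas2 was higher in A/J by 0.40 ± 0.06 (SE, log2; Storey q = 2.64e-06) and lower in PWK/PhJ by -0.19 ± 0.06 (SE, log2; Storey q = 0.00169). The level in PWK/PhJ was 0.413 ± 0.0416 cpm (SD, n = 3), under the limit of 0.5 cpm set on the mean of all libraries, and the call there was lost without its replicate 1 or 3 (q = 0.0106 to 0.0139). The retinal pigment epithelium markers, 7 genes led by Rgr, summed to 22.3, 48.9 and 74.7 cpm in A/J, and within strains their sum moved opposite to Npas2 (r = -0.63, 24 libraries). Counting error made up 92.2% of the variance of Npas2 within strains, so this r says little. The part of these markers in the level of Npas2 was not tested.

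**Figure D1:**
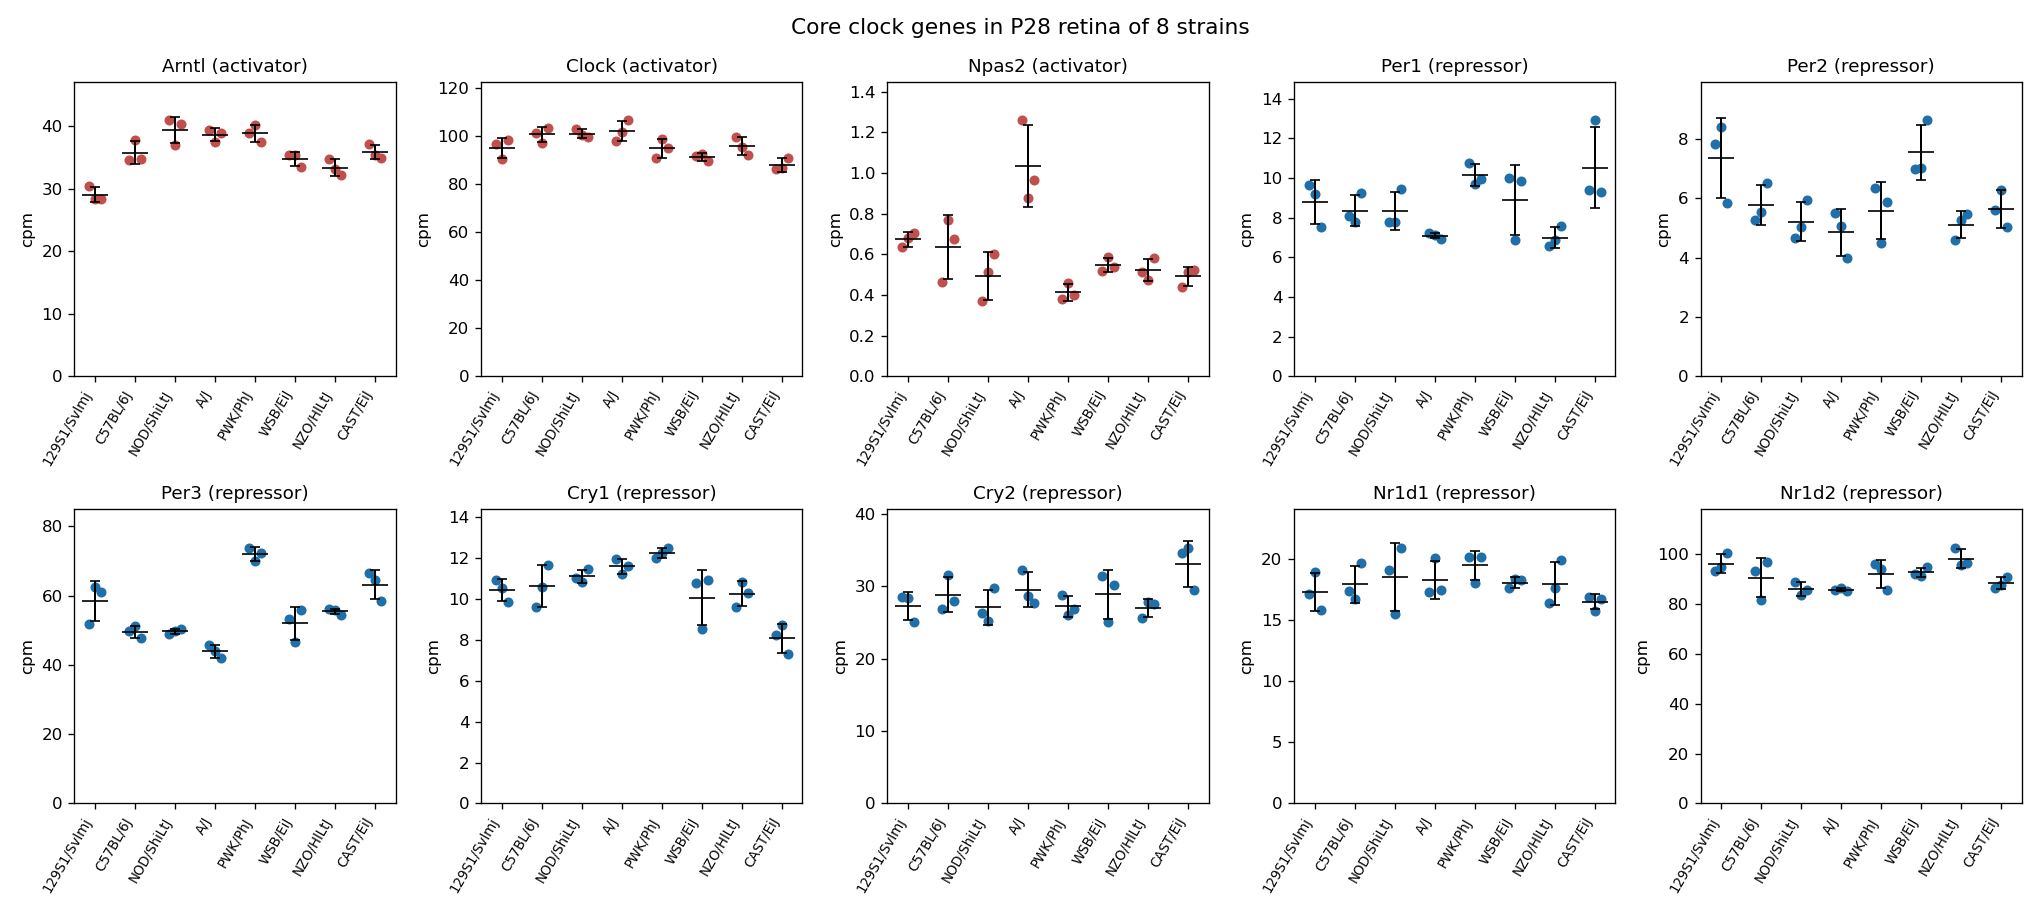
Level (cpm, linear axes from 0) of each of the 10 clock genes in the 24 libraries, by strain; points are libraries, bars are the mean and SD of 3. Arntl was low in 129S1/Svlmj, Npas2 high in A/J, Per3 high in PWK/PhJ and Cry1 low in CAST/EiJ, and of these groups only that of Cry1 overlapped another strain.

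The Per genes encode the repressors that accumulate with CRY and inhibit the activator pair, and Per1 and Per2 are also induced by light and cellular activity. Per1 (chr11:69095217-69109960, plus strand) measured 9.37, 12.9 and 9.29 cpm in CAST/EiJ, 10.8, 9.71 and 9.96 cpm in PWK/PhJ, 10.02, 6.85 and 9.83 cpm in WSB/EiJ and 9.64, 9.19 and 7.55 cpm in 129S1/Svlmj. It measured 8.07, 7.75 and 9.24 cpm in C57BL/6J, 7.80, 7.78 and 9.46 cpm in NOD/ShiLtJ, 7.21, 7.14 and 6.95 cpm in A/J and 6.54, 6.87 and 7.56 cpm in NZO/HlLtJ. NZO/HlLtJ and A/J overlapped each other, and both lay low, with A/J below all libraries of NOD/ShiLtJ, the next strain in the order. Replicate 2 of CAST/EiJ was the highest of the 24 libraries while its replicates 1 and 3 lay below PWK/PhJ, and WSB/EiJ held both high and low libraries. Per1 was higher in CAST/EiJ by 0.30 ± 0.09 (SE, log2; Storey q = 0.00270) and in PWK/PhJ by 0.26 ± 0.09 (SE, log2; Storey q = 0.00666), and lower in NZO/HlLtJ by -0.29 ± 0.09 (SE, log2; Storey q = 0.00776). Without replicate 2 of CAST/EiJ that strain's difference was 0.15 (q = 0.0694), the call in PWK/PhJ was lost without any 1 of its 3 libraries (q = 0.0151 to 0.0442), and that in NZO/HlLtJ was lost in 6 of 24 fits (limma, q = 0.0101 to 0.0648), those without any 1 of its own libraries, A/J replicate 2, PWK/PhJ replicate 1 or WSB/EiJ replicate 3. A/J, whose difference was -0.27, was called in 5 of the 24 fits (limma, Storey q = 0.00233 to 0.00992), those without 129S1/Svlmj replicate 3, WSB/EiJ replicate 2 or any 1 library of CAST/EiJ.

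Per2 (chr1:91415982-91459324, minus strand) gave 7.002, 7.03 and 8.63 cpm in WSB/EiJ, 7.82, 8.40 and 5.83 cpm in 129S1/Svlmj, 5.26, 5.54 and 6.53 cpm in C57BL/6J and 5.59, 6.29 and 5.03 cpm in CAST/EiJ. The other strains gave 6.36, 4.50 and 5.86 cpm in PWK/PhJ, 4.67, 5.02 and 5.94 cpm in NOD/ShiLtJ, 4.60, 5.28 and 5.46 cpm in NZO/HlLtJ and 5.52, 5.07 and 3.97 cpm in A/J. WSB/EiJ was above all other libraries except replicates 1 and 2 of 129S1/Svlmj, and the 6 remaining strains overlapped. Per2 was higher in WSB/EiJ by 0.37 ± 0.10 (SE, log2; Storey q = 0.00150) and in 129S1/Svlmj by 0.33 ± 0.10 (SE, log2; Storey q = 0.00530). The former was lost without its replicate 3 (q = 0.0305), and the latter without its replicate 1 or 2 (q = 0.0403 to 0.0587). Replicate 2 of 129S1/Svlmj was rich in lens markers, and without it and the other lens-rich library the difference was 0.23 (limma, Storey q = 0.0642). Without replicate 3 of 129S1/Svlmj, Per2 was also called in A/J (q = 0.00927), where its difference with all libraries was -0.26.

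Per3 (chr4:151003652-151044665, minus strand) showed the clearest strain pattern of the 10, with the largest F statistic (F = 23.1). Levels were 73.9, 70.02 and 72.2 cpm in PWK/PhJ, 66.4, 64.5 and 58.4 cpm in CAST/EiJ, 51.8, 62.3 and 61.1 cpm in 129S1/Svlmj and 56.1, 55.7 and 54.5 cpm in NZO/HlLtJ. They went down to 53.3, 46.6 and 55.97 cpm in WSB/EiJ, 48.8, 49.9 and 50.3 cpm in NOD/ShiLtJ, 49.8, 51.2 and 47.8 cpm in C57BL/6J and 45.6, 43.99 and 42.01 cpm in A/J. PWK/PhJ was above and A/J below every other library, and the strains between them formed an overlapping series. Per3 was higher in PWK/PhJ by 0.44 ± 0.05 (SE, log2; Storey q = 2.82e-08) and in CAST/EiJ by 0.22 ± 0.05 (SE, log2; Storey q = 0.000170). It was lower in A/J by -0.36 ± 0.05 (SE, log2; Storey q = 2.03e-06), in C57BL/6J by -0.16 ± 0.05 (SE, log2; Storey q = 0.00709) and in NOD/ShiLtJ by -0.16 ± 0.05 (SE, log2; Storey q = 0.00750). The call in C57BL/6J was lost without any 1 of its libraries (q = 0.0122 to 0.0604), and that in NOD/ShiLtJ in 5 of 24 fits (limma, q = 0.01005 to 0.0497), those without any 1 of its own libraries, A/J replicate 2 or NZO/HlLtJ replicate 2. The call in NOD/ShiLtJ was also lost without the lens-rich libraries (limma, Storey q = 0.0261). The difference itself hardly moved there, with -0.157 against -0.161 with all libraries. Without its replicate 1, 129S1/Svlmj was called as well with 0.18 (q = 0.00520), against a difference of 0.10 with all libraries. Within strains Per3 moved with the summed bipolar cell markers, 6 genes led by Trpm1 (r = 0.84). Between strains the order differed, since WSB/EiJ had the most of these markers, with 613, 536 and 596 cpm, against 465, 468 and 456 cpm in PWK/PhJ. Their part in the variation of Per3 was not tested.

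Cry1 and Cry2 encode cryptochromes, the strongest repressors of the activator pair. For Cry1 (chr10:85131700-85185064, minus strand) the values were 12.00, 12.2 and 12.5 cpm in PWK/PhJ, 11.97, 11.2 and 11.6 cpm in A/J, 11.03, 10.8 and 11.4 cpm in NOD/ShiLtJ and 9.60, 10.6 and 11.6 cpm in C57BL/6J. Next came 10.9, 10.5 and 9.85 cpm in 129S1/Svlmj, 9.60, 10.8 and 10.3 cpm in NZO/HlLtJ, 10.8, 8.51 and 10.9 cpm in WSB/EiJ and 8.24, 8.71 and 7.31 cpm in CAST/EiJ. CAST/EiJ was the lowest strain, its highest library overlapping only replicate 2 of WSB/EiJ, and PWK/PhJ was above every other library. Cry1 was lower in CAST/EiJ by -0.39 ± 0.06 (SE, log2; Storey q = 2.38e-06) and higher in PWK/PhJ by 0.24 ± 0.06 (SE, log2; Storey q = 0.000523). Both calls were kept in all 24 fits that left out 1 library.

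Cry2 (chr2:92403646-92434043, minus strand) went the other way in CAST/EiJ. Its libraries read 34.5, 35.3 and 29.4 cpm in CAST/EiJ, 32.3, 28.7 and 27.7 cpm in A/J, 31.4, 25.02 and 30.2 cpm in WSB/EiJ and 26.9, 31.5 and 27.95 cpm in C57BL/6J. The remainder read 28.4, 28.3 and 25.00 cpm in 129S1/Svlmj, 28.8, 25.96 and 26.9 cpm in PWK/PhJ, 26.3, 25.1 and 29.8 cpm in NOD/ShiLtJ and 25.6, 27.8 and 27.5 cpm in NZO/HlLtJ. Replicates 1 and 2 of CAST/EiJ were above every other library, and replicate 3 lay among the other strains. Cry2 was higher in CAST/EiJ by 0.24 ± 0.07 (SE, log2; Storey q = 0.00134), a call lost without its replicate 1 or 2 (q = 0.0159 to 0.0189). Over 8 strains the moderated F-test of limma gave a Storey q of 0.00301 and a Benjamini-Hochberg adjusted p of 0.0604, and without replicate 1 or 2 of CAST/EiJ the Storey q was 0.0134 to 0.0144. An opposite-strand gene, D930015M05Rik, overlaps 4.67% of the exon bases of Cry2.

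Nr1d1 (chr11:98767932-98775333, minus strand) encodes REV-ERB alpha, which represses Arntl. It read 20.2, 18.1 and 20.2 cpm in PWK/PhJ, 19.1, 15.5 and 20.97 cpm in NOD/ShiLtJ, 17.4, 20.1 and 17.5 cpm in A/J and 17.6, 18.4 and 18.3 cpm in WSB/EiJ. It also read 16.5, 17.7 and 19.9 cpm in NZO/HlLtJ, 17.4, 16.8 and 19.7 cpm in C57BL/6J, 17.1, 18.99 and 15.9 cpm in 129S1/Svlmj and 16.95, 15.8 and 16.8 cpm in CAST/EiJ. Each strain overlapped the next in the order of means, PWK/PhJ at the top lay above CAST/EiJ at the bottom, and the whole spread over 24 libraries, 1.35 times, was between libraries of 1 strain, NOD/ShiLtJ. No strain was called, and the F-test did not call Nr1d1 (limma, F = 1.07, Storey q = 0.0212, Benjamini-Hochberg adjusted p = 0.427). Without NOD/ShiLtJ replicate 2 the q-value was 0.00476, and without both lens-rich libraries it was 0.00190. Thra, on the opposite strand, overlaps 8.55% of the exon bases of Nr1d1, and although the kit kept the strand of the RNA, whether counting used it is not stated, so the value of Nr1d1 may include reads of Thra there.

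Nr1d2 (chr14:18204054-18239127, minus strand) encodes REV-ERB beta, the paralog with an overlapping role. The highest strains had 102, 95.4 and 96.4 cpm in NZO/HlLtJ, 93.02, 94.6 and 100.3 cpm in 129S1/Svlmj, 91.8, 91.1 and 94.7 cpm in WSB/EiJ and 96.02, 93.9 and 85.4 cpm in PWK/PhJ. The lowest had 93.1, 81.5 and 96.5 cpm in C57BL/6J, 86.1, 87.6 and 90.8 cpm in CAST/EiJ, 88.7, 83.4 and 85.6 cpm in NOD/ShiLtJ and 85.5, 86.1 and 84.9 cpm in A/J. Neighbouring strains overlapped throughout, from 98.1 ± 3.83 cpm (SD, n = 3) in NZO/HlLtJ to 85.5 ± 0.614 cpm (SD, n = 3) in A/J. The F-test called it with a small difference (limma, Storey q = 0.000836, Benjamini-Hochberg adjusted p = 0.0168), and no single strain was called on the values as deposited. After quantile normalization NZO/HlLtJ, 129S1/Svlmj and NOD/ShiLtJ were called (Storey q = 0.00138, 0.00632 and 0.00881). NZO/HlLtJ, with a difference of 0.12, was called in 6 of the 24 fits without 1 library (limma, Storey q = 0.00589 to 0.00986), those without replicate 3 of 129S1/Svlmj or CAST/EiJ, replicate 1 of PWK/PhJ or any 1 library of C57BL/6J. A/J, with -0.10, was called without replicate 2 of C57BL/6J (q = 0.00689).

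The F-test called 9 of the 10 members at a Storey q below 0.01, against 91.7% of all genes tested. The share of genes without any strain difference was estimated as 4.98%, so a q-value here lies far below the corresponding Benjamini-Hochberg value. With the latter below 0.01, 7 of the 10 were called, against 70.6% of all genes. In either case the members' share was close to the background. The median F was 5.33 over the members and 6.96 over all genes, and the median SD within strains was 0.09 and 0.09 (log2).

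Of 80 member and strain pairs, 20 were called, 12 higher and 8 lower, or 25.0%, against 32.0% of all pairs of a gene and a strain. PWK/PhJ had 4 members higher and 1 lower, against 25.98% and 22.4% of all genes. CAST/EiJ had 3 higher and 2 lower, against 20.03% and 28.8%. A/J had 2 higher and 1 lower, against 14.6% and 12.3%. In 129S1/Svlmj 1 was higher and 1 lower, against 14.3% and 12.6%, and in NOD/ShiLtJ 1 was higher and 1 lower, against 14.5% and 8.93%. WSB/EiJ had 1 higher and 0 lower, against 12.3% and 21.5%. C57BL/6J had 0 higher and 1 lower, against 12.5% and 10.01%, and NZO/HlLtJ 0 higher and 1 lower, against 12.3% and 12.9%. In each of these 3 counts of 0, 1 member had an unadjusted p below 0.05 in that direction (Clock in WSB/EiJ and C57BL/6J, Nr1d2 in NZO/HlLtJ) and 0 passed with Benjamini-Hochberg values, under which 15 of the 20 pairs were called. Those lost were Per1 in PWK/PhJ and NZO/HlLtJ, Per2 in 129S1/Svlmj and Per3 in C57BL/6J and NOD/ShiLtJ. The members' share of calls was below that of all genes, a difference that was not tested. The contrasts share libraries, and 8 of the 20 calls were kept whichever library was left out.

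Read by role, 129S1/Svlmj had low Arntl with high Per2, and NOD/ShiLtJ and A/J had high Arntl with low Per3. The calls for Per2 in 129S1/Svlmj (Benjamini-Hochberg adjusted p = 0.0127 in limma) and Per3 in NOD/ShiLtJ (adjusted p = 0.0157) did not pass with those values, nor without the lens-rich libraries (Storey q = 0.0642 and 0.0261), and Arntl in A/J was lost without replicate 1 or 3 of A/J (q = 0.0221 to 0.0274). Without the lens-rich libraries Per3 in NOD/ShiLtJ still differed by -0.157, against -0.161 with all libraries. Per2 in 129S1/Svlmj differed by 0.23, against 0.33. PWK/PhJ had high Arntl together with high Per1 (Benjamini-Hochberg adjusted p = 0.0217 in limma), Per3 and Cry1, while the activator Npas2 was low there. In CAST/EiJ Clock and Cry1 were low while Per1, Per3 and Cry2 were high. Across the 8 strain means, slopes on Arntl were -0.93 ± 0.42 for Per2 (SE, log2 per log2), -0.38 ± 0.18 for Nr1d2 and 0.25 ± 0.21 for Nr1d1. By sign, 5 of the 9 members had positive slopes there and 4 negative ones. None of the 9 members tested was called by limma, against 0% of all 16399 genes, and none of them had an unadjusted p below 0.05, against 818 (4.99%) of all genes. Storey q was 0.972 for both Per2 and Nr1d1, and no gene was called with Benjamini-Hochberg values below 0.01 either.

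Libraries of 1 strain share a genetic background, so the relation between members was then measured within strains, as the slope on Arntl with strain as a factor. Arntl varied little within strains (SD 0.06 log2), from -0.09 in replicate 2 of NOD/ShiLtJ to 0.08 in replicate 2 of C57BL/6J. Clock had a slope of 0.10 ± 0.25 (SE, log2 per log2) and Npas2 of 0.24 ± 0.41. Among repressors, Per2 had -0.70 ± 0.71, Per1 -0.40 ± 0.67, Per3 -0.26 ± 0.36, Nr1d1 -0.24 ± 0.50 and Nr1d2 -0.19 ± 0.30. Cry2 had 0.61 ± 0.47 and Cry1 0.02 ± 0.44, and the sign of Cry1 turned under median-ratio scaling and quantile normalization. Both activators were above 0 and 5 of 7 repressors below 0. The limma fit called 0 of the 9 members, against 0% of all genes (lowest Storey q 0.997), and at an unadjusted p below 0.05 there were 0 members and 716 (4.37%) of all genes. The Benjamini-Hochberg count below 0.01 was also 0 for members and for all genes, here and in the fit on Nr1d1.

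With Nr1d1 in place of Arntl, Per2 had a slope of 0.79 ± 0.29 (limma, unadjusted p = 0.0124, Storey q = 0.780), and Per1 had 0.43 ± 0.30. Slopes of the activators were -0.05 ± 0.13 for Arntl, -0.12 ± 0.11 for Clock and -0.06 ± 0.19 for Npas2. The fit called 0 of 9 members, against 0% of all genes, with 1 member and 869 genes (5.30%) at an unadjusted p below 0.05. Dbp, a PAR bZIP transcription factor driven by E-boxes like Nr1d1, had the fifth largest positive moderated t of all genes, with a slope of 0.73 ± 0.17 (Storey q = 0.682). It was named after its values were seen, and did not pass the test.

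Genes closest to Arntl within strains by moderated t were, with their slopes, Glcci1 (2.86 ± 0.60), Cfap74 (1.58 ± 0.35) and H3c11 (2.74 ± 0.71). The most opposite were Etl4 (-2.59 ± 0.65), Gm37132 (-1.46 ± 0.37) and Nectin3 (-1.98 ± 0.51). For Nr1d1 those given at the positive end are Ankrd13b (0.90 ± 0.18) and Vamp2 (0.90 ± 0.19), and the most opposite were Gm14296 (-0.73 ± 0.19), Clic5 (-1.04 ± 0.27) and Gm42820 (-0.53 ± 0.15). None was called in limma (Storey q 0.997 for Arntl, and 0.682 to 0.753 for Nr1d1), so these names are only the ends of a ranking.

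Arntl and Nr1d1, the target and its repressor, were fixed as 1 pair for a permutation test of deviations from strain means. Over 24 libraries Pearson's r was -0.11 (p = 0.729, Benjamini-Hochberg over 2 tests 0.729) and Spearman's rho -0.22 (p = 0.433, adjusted 0.729; two-sided permutation of libraries within strains). The planned repeat without the 2 libraries farthest from the median on Arntl, replicate 2 of NOD/ShiLtJ and replicate 2 of C57BL/6J, gave r = -0.51 (permutation p = 0.0619) and rho = -0.50 (permutation p = 0.0559). A single library weighed heavily. Replicate 2 of NOD/ShiLtJ, rich in lens markers, had the lowest deviation of both genes, -0.09 for Arntl and -0.23 for Nr1d1, and without it alone r was -0.57 (permutation p = 0.0322). That fit is 1 of 36 alternatives, of which 3, all without this library, had a p below 0.05, and the result with all libraries remains the planned one. Without both lens-rich libraries r was -0.54 (permutation p = 0.0494). Whether the lens RNA bears on the values of this library was not tested.

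**Figure D2:**
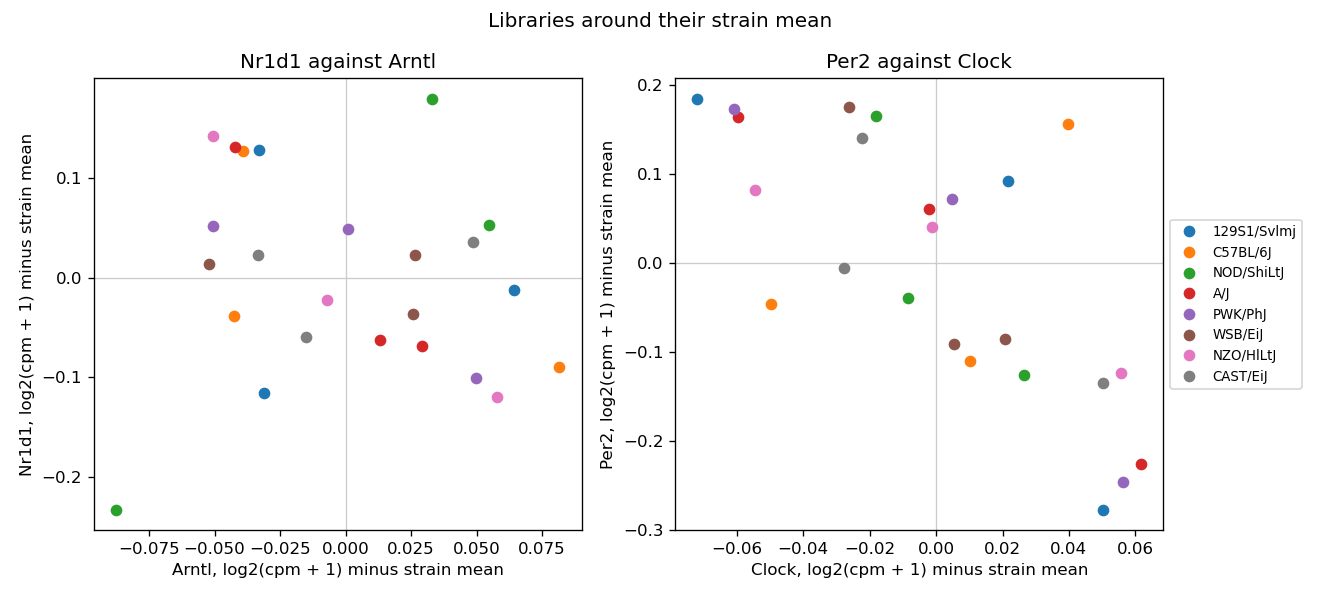
Deviation of each of 24 libraries from its strain mean, log2(cpm + 1), for Nr1d1 against Arntl (left) and Per2 against Clock (right); colours are strains. The NOD/ShiLtJ library at the lower left of the left plot has -0.09 for Arntl and -0.23 for Nr1d1, and on the right Per2 falls as Clock rises (r = -0.73).

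After the fits on Arntl and Nr1d1 were seen to call no gene, the same fit was made on each of the other 8 members. Fits on Clock, Npas2, Per1, Per2 and Nr1d2 called 0 of 9 members each, against 0% of all genes, while that on Per3 called 0 members and 3 genes (0.0183%) and that on Cry1 0 members and 1 gene (0.00610%). At an unadjusted p below 0.05 the first 5 fits held 3, 0, 3, 5 and 0 of 9 members in the order given. Of all genes they held 3332 (20.3%), 1016 (6.20%), 2236 (13.6%), 2392 (14.6%) and 2492 (15.2%). The fits on Per3 and Cry1 held 2 and 3 members, against 3490 (21.3%) and 3159 (19.3%) of all genes. With Benjamini-Hochberg values below 0.01 these 7 fits called no member. The fit on Cry2 called 1309 genes, 1117 rising and 192 falling with it, or 7.98% of all genes, and 2 of 9 members. At an unadjusted p below 0.05 that fit held 5 members, against 4760 (29.0%) of all genes. Per1 rose with Cry2 by 0.98 ± 0.24 (SE, log2 per log2; limma, Storey q = 0.00494, Benjamini-Hochberg adjusted p = 0.00867) and Cry1 by 0.62 ± 0.16 (q = 0.00607, adjusted p = 0.0107). With Benjamini-Hochberg values below 0.01, 940 genes and, of the members, Per1 alone were called, and Per1 alone was also called after median-ratio scaling. Cry1 alone was called with ordinary least squares without moderation and without NOD/ShiLtJ replicate 3, and Per2 alone without WSB/EiJ replicate 1. With all libraries Per2, at 0.97 ± 0.27 (q = 0.0112), and Clock, at -0.30 ± 0.09 (q = 0.0225), did not pass in limma. These calls were unstable. The number of members called went from 0 to 3 when single libraries were left out, and it was 0 without 129S1/Svlmj replicate 3, WSB/EiJ replicate 2 or CAST/EiJ replicate 3, without the lens-rich libraries or the strain NZO/HlLtJ or NOD/ShiLtJ, without a filter on low values, or after quantile normalization. The number of all genes called went from 623 without C57BL/6J replicate 2 to 1884 without 129S1/Svlmj replicate 1, with 658 without WSB/EiJ replicate 2, 774 without CAST/EiJ replicate 3 and 847 without NOD/ShiLtJ replicate 3.

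Over 45 pairs of members, correlations of deviations from strain means are given as a description, and the points share libraries. Repressors went together in 16 of 21 pairs, with a median r of 0.26. In each of the 6 pairs among Per1, Per2, Cry1 and Cry2, r lay between 0.53 for Per2 and Cry1 and 0.78 for Per1 and Cry1. Per2 also had 0.54 with Nr1d1, and Per3 had 0.52 with Cry2. Nr1d2 had r = -0.35 with Cry2. Activator and repressor pairs were opposed in 13 of 21, with a median r of -0.13. Clock had r = -0.73 with Per2, -0.70 with Cry2 and -0.54 with Per3, was negative with 6 of 7 repressors, and had the highest r of an activator with a repressor, 0.39, with Nr1d2. Arntl was negative with 5 of 7, the lowest being -0.22 with Per2. Npas2 was negative with only 2 of 7, the lowest being -0.24 with Nr1d2, and had r = -0.27 with Clock. Whether the 3 activators differ in this was not tested. Counting error made up 92.2% of the variance of Npas2 within strains, so its correlations say little, and its pairs are among the 21. Replicate 2 of 129S1/Svlmj, rich in lens markers, had the lowest deviation of Clock, -0.07, and the highest of Per2, 0.18. Without the 2 lens-rich libraries Clock had r = -0.69 with Per2, -0.76 with Cry2 and -0.46 with Per3, the 6 pairs of Per1, Per2, Cry1 and Cry2 had 0.55 to 0.78, and 14 of 21 activator and repressor pairs were opposed. In the fit on Clock, slopes were -2.58 ± 0.59 for Per2 (limma, Storey q = 0.0343) and -1.66 ± 0.41 for Cry2 (q = 0.0360), and neither passed 0.01.

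**Figure D3:**
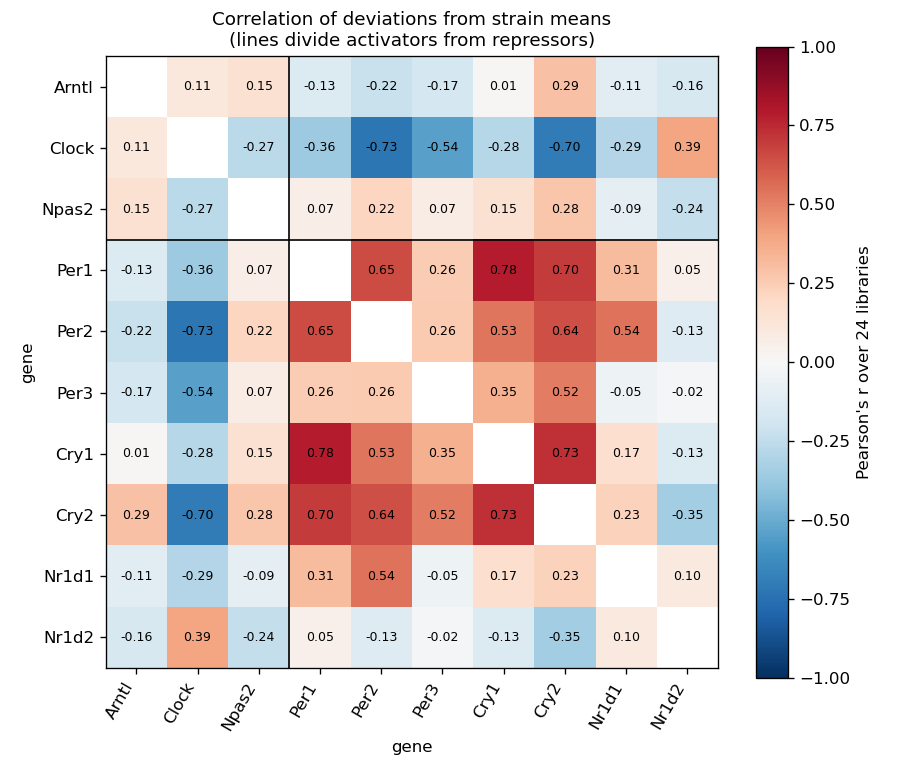
Pearson's r between the deviations of each pair of the 10 members from their strain means over 24 libraries, with activators before the lines and repressors after them. Per1, Per2, Cry1 and Cry2 have r from 0.53 to 0.78 with each other, and Clock has -0.73 with Per2 and -0.70 with Cry2.

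Markers of other cells varied with several members. The summed amacrine cell markers, 5 genes led by Pax6 and all above 0.5 cpm, had r = 0.72 with Per1, 0.67 with Per2, 0.77 with Cry1 and 0.76 with Cry2 within strains, and 0.72, 0.69, 0.77 and 0.77 without the lens-rich libraries. They were not the only such markers. Retinal ganglion cell markers, 5 genes led by Nefl that summed to 131 to 222 cpm, had r = 0.48 with Cry1 and 0.46 with Cry2, and bipolar cell markers had 0.48 with Cry2. In WSB/EiJ, where replicate 2 was lowest for Per1, Cry1 and Cry2, the amacrine sum was 269, 243 and 263 cpm, and in CAST/EiJ, where replicate 2 was highest for those genes, it was 243, 251 and 237 cpm. Replicate 2 of WSB/EiJ stood apart in other markers too. Its bipolar (536 cpm), cone (260 cpm) and ganglion cell (165 cpm) sums were the lowest of its strain. Its rod marker sum (9083 cpm) and its sum over all genes (332472 cpm) were the lowest of the 24 libraries. In NOD/ShiLtJ, whose replicate 3 had the highest deviation of Cry2, 0.14, the amacrine sum was 225, 223 and 225 cpm. Cry2 there was 26.3, 25.1 and 29.8 cpm, so replicate 2 was the lowest of its strain for both. Clock had r = -0.47 with the amacrine, 0.54 with the pigment epithelium and -0.45 with the lens markers (the last -0.35 without the lens-rich libraries). Mueller glia markers, 5 genes led by Glul, had r = 0.22 with Clock, -0.26 with Per2 and 0.30 with Nr1d2. Without the lens-rich libraries these values were 0.66, -0.55 and 0.48. The lens markers had r = -0.19 with Arntl and 0.15 with Cry2, and 0.49 and 0.46 without those libraries. With blood markers, 5 genes led by Hbb-bs that summed to 7.45 to 30.7 cpm, Clock had r = -0.50 and Nr1d2 -0.48 (-0.63 and -0.50 without the lens-rich libraries). Nr1d2 also had r = -0.53 with the lens markers (-0.67 without the lens-rich libraries) and -0.54 with the total reads of a library, with which Clock had -0.44. Arntl had r = 0.54 with vascular and pericyte markers, 5 genes led by Kdr that summed to 91.6 to 122 cpm. Activity-induced genes, 13 genes led by Fos of which 9 reached 0.5 cpm, went with Per1 (r = 0.63). Replicate 2 of CAST/EiJ, the library with the most Per1, had 30.98 cpm of them, against 17.5 and 21.5 cpm in replicates 1 and 3. The part of these cell types in the shared variation was not tested.

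Of 29 further clock genes, 28 were tested and Aanat, the enzyme that limits melatonin synthesis, was below 0.5 cpm. Between strains 27 of the 28 were called at a Storey q below 0.01, against 91.7% of all genes. The genes picked out here were chosen after their values were seen. Ciart, a repressor of the activator pair, was higher in 129S1/Svlmj, like Per2, by 0.43 ± 0.08 (SE, log2; Storey q = 7.81e-05), with 3.57, 3.43 and 3.46 cpm in 129S1/Svlmj and 1.73, 1.76 and 1.60 cpm in A/J. In WSB/EiJ, where Per2 was highest, Ciart was not called, with a difference of 0.13 ± 0.08 (SE, log2; Storey q = 0.0786). Bhlhe40, which encodes the repressor DEC1, was higher in 129S1/Svlmj too, by 0.40 ± 0.08 (SE, log2; Storey q = 0.000213). The ubiquitin ligase gene Btrc, whose product targets PER proteins, had the largest F of these 28, 178, with 81.2, 81.6 and 76.8 cpm in CAST/EiJ, 74.9, 80.3 and 79.8 cpm in PWK/PhJ and 43.04, 42.03 and 41.6 cpm in 129S1/Svlmj. CAST/EiJ and PWK/PhJ lay above each library of the other 6 strains. Within strains 0 of the 28 were associated with Arntl in limma, 2 at an unadjusted p below 0.05 (Rorb, -0.90 ± 0.38, and Fbxw11, 0.54 ± 0.25), and by sign 13 slopes were positive and 15 negative. In the fit on Cry2, 3 of the 28 were called, against 7.98% of all genes, so that the count is close to the background. They had positive slopes: Csnk1d and Csnk1e, kinases that mark PER for degradation, with 0.69 ± 0.13 (q = 0.00102) and 0.69 ± 0.16 (q = 0.00393), and Adcy1, an adenylyl cyclase, with 0.67 ± 0.16 (q = 0.00494).

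Promoter sequences of RefSeq (GRCm38.p6; 250 bases before to 50 after each start) were at hand for 9 of the members, in 13 promoters, the exception being Per2, and the matches are shown because Per1 and Cry1 were called in the fit on Cry2 and because Nr1d1 is known to act on Arntl through such an element. They were searched on both strands for the E-box CACGTG, the variant CACGTT, the D-box TTATGTAA, the cAMP response element TGACGTCA and the ROR element, which is given by name. Of 32851 promoters, 7.15% held CACGTG, 4.68% CACGTT, 0.938% TTATGTAA, 1.79% TGACGTCA and 0.384% the ROR element. Capitals mark the match, which describes the letters only. Clock, Npas2 and Nr1d2 held none of these letters in this window.
Per1 E-box (chr11:69098772-69098799, plus strand): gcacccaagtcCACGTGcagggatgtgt
Cry1 E-box (chr10:85185098-85185125, minus strand): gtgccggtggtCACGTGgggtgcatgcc
Cry1 variant E-box (chr10:85185117-85185144, minus strand): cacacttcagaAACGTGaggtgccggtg
Cry2 variant E-box (chr2:92434219-92434246, minus strand): cacatggtgggAACGTGagggggcggag
Nr1d1 variant E-box (chr11:98775389-98775416, minus strand): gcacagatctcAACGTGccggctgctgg
Per3 D-box (chr4:151044805-151044834, minus strand): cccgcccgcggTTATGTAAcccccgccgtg
Per3 D-box (chr4:151044852-151044881, minus strand): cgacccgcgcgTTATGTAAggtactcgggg
Arntl ROR element (chr7:113207528-113207556, plus strand): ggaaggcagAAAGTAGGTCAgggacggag
The variant sites are printed on the gene's strand, where CACGTT reads AACGTG. The Arntl match begins 27 bases after 1 of its 2 starts. Per1 (in 1 of its 2 promoters), Cry1, Cry2 and Nr1d1 each held an E-box or its variant in this window, and Per2 was not searched.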

How the data were processed

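The submitters' processing notes name STAR for alignment to GRCm38/mm10 and Partek for assigning reads to genes. To make the cpm values that were deposited, the authors divided by a library's total read count and added 0.0001. Reads shared between transcripts were divided, so only 85.8% to 88.4% of values below 0.5 cpm were whole numbers of reads (within 0.01 reads), and no model for counts was fitted. The log2 of cpm plus 1 was fitted with limma (version 3.58.1, R 4.3.3; eBayes with trend), two-sided, on 16400 genes averaging 0.5 cpm or more, and Storey q-values, with the share of unaffected genes taken from p above 0.5, were limited to 0.01. Benjamini-Hochberg values are given beside them. Each library counts as a replicate. Permutation used 100000 orders within strains. Gene models are those of GENCODE M21, and the table's end lay 1 base past them for 99.4% of 28007 shared symbols.

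The genes named were the 10 members, further clock genes called in a fit on a member (the sense in which the rule, which says called in a fit, was read), and the 3 genes at either end of moderated t in the fits on Arntl and Nr1d1, not each of which is reported. The members and the lists of clock genes and markers were chosen with earlier results of these data known. Fits on the other 8 members, the settings for Cry2 and the fits without lens-rich libraries were chosen after seeing the data. Dbp, Ciart, Bhlhe40, Btrc, Rorb, Fbxw11 and Aanat were named after their values were seen.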

Additional observations from a re-analysis of the deposited data

How the results depend on the processing

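Across a pseudocount of 0.1, median-ratio scaling and quantile normalization, 225 of 240 differences of a member in 1 strain kept their direction and their side of the threshold, 6 were newly called (Per1 in A/J with both scalings, and with quantile normalization Clock in A/J and Nr1d2 in 129S1/Svlmj, NOD/ShiLtJ and NZO/HlLtJ) and 9, none of them called, changed sign. With median-ratio scaling the changes of sign were Arntl in WSB/EiJ (0.00570), Nr1d1 in NZO/HlLtJ (0.000910) and Nr1d2 in PWK/PhJ (-0.0105), and the slope of Cry1 on Arntl became -0.128. With quantile normalization they were Arntl in C57BL/6J (-0.00281), Clock in 129S1/Svlmj (0.0227) and NZO/HlLtJ (0.0310), Nr1d1 in NOD/ShiLtJ (-0.00131) and NZO/HlLtJ (0.00696) and Nr1d2 in PWK/PhJ (-0.0451), and the slope of Cry1 on Arntl was -0.244. The cause was not tested.

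Called pairs of a member and a strain numbered 18 to 24 when single libraries were left out, 15 with Benjamini-Hochberg values and 35 at q below 0.05, a looser limit. Members differing between strains numbered 8 to 10 when single libraries were left out. The correlation of Arntl and Nr1d1 ran from -0.568 to -0.00997 when single libraries were left out. It was -0.567 without the strain NOD/ShiLtJ, -0.542 without the lens-rich libraries and 0.0225, on the other side of 0, without NZO/HlLtJ. Correlations of member pairs and of markers with members were also computed without the lens-rich libraries.

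Npas2 could not be tested at a mean of at least 5 cpm. Its reads, 25 to 96 per library, gave a counting error of up to 20%. With the hour of collection unknown, differences between strains and between hours cannot be told apart.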
